A study of Mus musculus with 2 samples.

Results

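Trdc positive gamma delta T cells of the mouse intestine numbered 150 of 15156 kept barcodes, 64 of 6909 in one library and 86 of 8247 in the other. They were chosen by their own unique molecular identifier (UMI) counts: at least 500 UMIs and 250 genes, at most 25% mitochondrial UMIs, at least 2 UMIs over the CD3 chain genes Cd3d, Cd3e and Cd3g, at least 1 UMI of Trdc, which encodes the constant region of the T cell receptor delta chain, and none of the B cell gene Cd79a or the epithelial gene Epcam. The study sequenced the dissociated whole intestine of 2 mice, 1 per library, with droplet 3' chemistry. Both mice had the genotype WT. The RA library came from a mouse of the collagen-induced arthritis group on standard chow, and the butyrate library from a mouse on a 1% butyrate diet. The sources used here do not give the arthritis status of the butyrate mouse, nor strain, age or time on diet. With 1 library per diet, no difference between the libraries was tested, and each interval given for one covers counting error only.

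Gamma delta T cells pair a gamma chain with a delta chain in place of the alpha and beta chains of most T cells, and many take up residence in barrier tissues early in life. In the intestine, those within the epithelium typically carry CD8 alpha without CD8 beta and are known for granzymes and natural killer receptors. Another lineage, with a receptor of variable segments V gamma 6 and V delta 1 (the genes Trgv6 and Trdv4), leaves the thymus already set to make interleukin 17 and responds to interleukins 1 and 23. Cells with a Cd8a UMI and cells with a UMI of Il17a or Il23r, which encode interleukin 17A and the interleukin 23 receptor, were therefore described apart, as were the cells with neither.

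Reads of the receptor genes identify the chain only where the genes differ in sequence. Below are 120 bases of the coding region of each gamma constant gene, from the transcripts of GENCODE M21 (GRCm38), with capitals at each base that differs from Trgc1.
Trgc1: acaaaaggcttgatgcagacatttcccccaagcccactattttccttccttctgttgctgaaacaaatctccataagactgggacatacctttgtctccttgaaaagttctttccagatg
Trgc2: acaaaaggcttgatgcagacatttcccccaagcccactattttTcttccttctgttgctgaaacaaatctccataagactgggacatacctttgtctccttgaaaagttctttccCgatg
Trgc3: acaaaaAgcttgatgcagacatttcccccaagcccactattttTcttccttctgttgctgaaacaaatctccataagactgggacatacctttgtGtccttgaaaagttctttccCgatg
Trgc4: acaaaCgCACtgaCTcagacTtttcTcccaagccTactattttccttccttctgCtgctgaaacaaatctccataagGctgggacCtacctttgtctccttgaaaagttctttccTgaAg

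Trgc2 differed from Trgc1 at 2 and Trgc3 at 4 of these 120 bases, and over the aligned coding regions Trgc1 shared 97.4% of bases with Trgc2 and 96.8% with Trgc3. Counts of Trgc1, Trgc2 and Trgc3 may thus be uncertain between these genes. Bases outside the coding regions, which 3' reads can also cover, were not compared. Trgc4 differed at 14 bases and shared 76.9% of the aligned bases. The variable segments Trgv1 and Trgv2 shared 95.7%, and their counts may likewise be uncertain. The genes lie on chromosome 13 at 19214103 to 19217024 (Trgc1, forward strand), 19304649 to 19307551 (Trgc2, reverse strand), 19260884 to 19263528 (Trgc3, forward) and 19344558 to 19352756 (Trgc4, forward). Trdc lies on chromosome 14 at 54142851 to 54148868, forward strand.

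The segments Trgv6 (chromosome 13, 19190356 to 19190929, forward) and Trdv4 (chromosome 14, 54074905 to 54075515, forward) are shown because they set the Il17a or Il23r positive cells apart. The last 180 of 403 (Trgv6) and of 345 (Trdv4) coding bases are given, and capitals mark the last cysteine codon, where the antigen-contacting CDR3 loop begins, and the bases after it.
Trgv6: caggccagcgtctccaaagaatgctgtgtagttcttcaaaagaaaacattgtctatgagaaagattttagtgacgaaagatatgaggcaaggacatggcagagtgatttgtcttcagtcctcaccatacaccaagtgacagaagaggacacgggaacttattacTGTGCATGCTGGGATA
Trdv4: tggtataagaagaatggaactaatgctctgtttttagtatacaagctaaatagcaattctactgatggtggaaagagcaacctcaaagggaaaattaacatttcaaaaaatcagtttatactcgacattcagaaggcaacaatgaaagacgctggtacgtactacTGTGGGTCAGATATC

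Median depth was similar for the members of both libraries, but the lowest depth of any barcode was not. It was 501 UMIs for RA and 2313 UMIs for butyrate, with medians over all barcodes of 4252 and 5007 UMIs. The kept RA barcodes thus include some of lower depth than any butyrate barcode. The members held a median of 6486 (RA) and 5774 (butyrate) UMIs, with median mitochondrial shares of 2.46% and 1.98%. No member's barcode was shared between the libraries, although 27 barcodes were. Trdc stood at exactly 1 UMI in 10 RA and 21 butyrate members, its median was 6 and 4 UMIs, and its highest value 29 and 54. The CD3 sum was exactly 2 in 1 RA and 3 butyrate members. Just outside the gate lay 2 RA and 2 butyrate barcodes with Trdc and a single CD3 UMI, 11 and 11 with Trdc and no CD3 UMI, and 57 and 60 that failed only on Cd79a or Epcam. Trdc was seen in 0.241% of 2073 epithelial barcodes and 0.0518% of 7717 B cell barcodes (median depths by library 9073 and 6853, and 4241 and 4618 UMIs). It was seen in 7.02% and 7.5% of lymphoid barcodes without CD3, so the CD3 requirement bears on who is counted.

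The cells matched their label in the gamma chain and only in part in the other markers proposed for it. At least 1 UMI of a gamma constant gene was present in 49 of 64 RA members (76.6%, exact 95% interval 64.3 to 86.2) and 65 of 86 butyrate members (75.6%, 65.1 to 84.2). Among alpha beta T cells, defined as CD3 positive barcodes with a UMI of Trac, Trbc1 or Trbc2 and none of Trdc, the counts were 89 of 580 (15.3%) and 75 of 1103 (6.80%), and among those with a Cd8a UMI 47 of 102 (46.1%) and 34 of 227 (15.0%). Of the markers Klra5, Gzma, Gzmb and Cd8a, at least 1 was seen in 25 RA members (39.1%) and 30 butyrate members (34.9%), against 27.6% and 27.3% of alpha beta T cells, and at least 2 in 11 (17.2%) and 7 (8.14%) members, against 14.1% and 12.1% of alpha beta T cells. Klra5, a Ly49-family receptor gene, was seen in 19 RA and 11 butyrate members, Gzmb in 11 and 19, Gzma in 7 and 4, and Cd8a in 10 and 4. Most members therefore lacked all the markers but Trdc, and the cells are called Trdc positive here.

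RNA of the alpha beta receptor was also present. Trac was seen in 19 of 64 RA members (29.7%) and 25 of 86 butyrate members (29.1%), against 79.7% and 84.1% of alpha beta T cells. Some UMI of Trac, Trbc1 or Trbc2 was present in 63 and 83 members, so a gate without it would leave 1 and 3 cells. Beta constant RNA can be made from unrearranged or partly rearranged loci in lymphocytes. A UMI of Trac, Trbc1 or Trbc2 was held by 57 of 114 RA and 70 of 120 butyrate CD3-negative lymphoid barcodes. Among B cell barcodes the shares were 0.835% and 0.738%. The source of this RNA in the members was not tested. The helper coreceptor gene Cd4 was seen in 1 RA and 5 butyrate members, against 40.5% and 43.5% of alpha beta T cells. Cells that make both receptors and barcodes holding more than 1 cell were not told apart. Scrublet, a doublet caller, marked 0 barcodes in either library, and removing the highest-scored 445 and 612 barcodes removed 1 and 3 members.

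Members made up 0.926% of kept barcodes in the RA library (0.714 to 1.18) and 1.04% in the butyrate library (0.835 to 1.29), a butyrate to RA ratio of 1.13 (0.805 to 1.58). As a share of CD3 positive barcodes they made up 9.77% (7.61 to 12.3) and 7.20% (5.80 to 8.81), a ratio of 0.737 (0.527 to 1.03). Both intervals of the ratio include 1. A shared floor of 2313 UMIs, the lowest butyrate value, gave ratios of 1.06 of kept and 0.750 of CD3 positive barcodes. With each cell thinned to 1000 UMIs, 40 of 394 (10.2%) and 41 of 690 (5.94%) CD3 positive barcodes qualified, a ratio of 0.585 (0.369 to 0.928). CD3 positive barcodes were 655 of the kept RA barcodes and 1195 of the kept butyrate barcodes, so the denominators give ratios on either side of 1.

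Cd8a positive members were 10 of 64 in the RA library (15.6%, 7.76 to 26.9) and 4 of 86 in the butyrate library (4.65%, 1.28 to 11.5), a ratio of 0.298 (0.068 to 1.03). Relative to CD3 positive barcodes the shares were 1.53% and 0.335%, a ratio of 0.219 (0.0502 to 0.760). Cells with Il17a or Il23r were 14 (21.9%, 12.5 to 34.0) and 26 (30.2%, 20.8 to 41.1), a ratio of 1.38 (0.696 to 2.86). After thinning they were 25% and 24.4% of members, a ratio of 0.976. No member in either library had both Cd8a and one of the interleukin 17 genes (exact upper limits 5.60% of RA and 4.20% of butyrate members). With so few cells, this does not show that the subsets exclude each other. The remaining 40 RA cells (62.5%) and 56 butyrate cells (65.1%) were in neither subset. Median depth was 8654 and 8361 UMIs in the Cd8a positive cells, 7024 and 6067 in the Il17a or Il23r positive cells, and 5718 and 5594 in the rest. Cells of the last group whose Cd8a, Il17a or Il23r RNA went undetected cannot be told apart from cells without it.

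**Figure D1:**
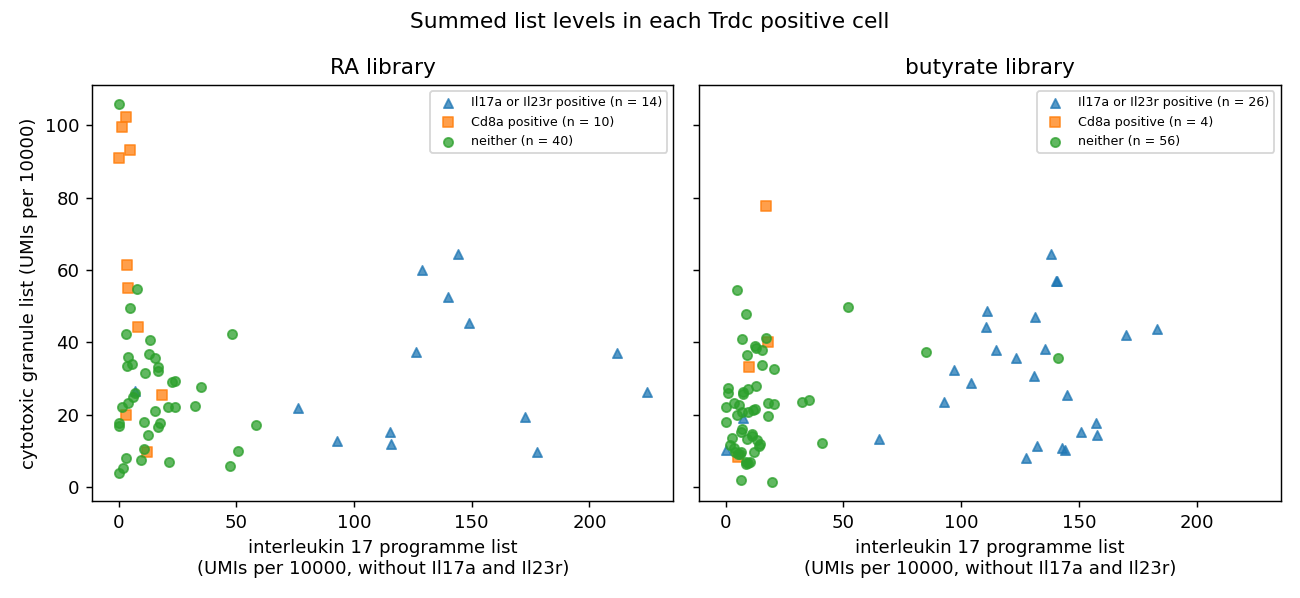
Each point is 1 Trdc positive cell, placed by its summed UMIs per 10000 for the interleukin 17 programme list (x axis, without Il17a and Il23r) and the cytotoxic granule list (y axis), with the RA library on the left and the butyrate library on the right. Triangles are Il17a or Il23r positive cells, squares Cd8a positive cells and circles the rest. The triangles lie mostly to the right, with medians of 134 and 132 and 3 cells at the far left (7.12 in RA, 7.37 and 0 in butyrate), and the circles lie mostly to the left, with medians of 12 and 9.48.

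The variable segments followed the subsets. Trdv4 was seen in 7 of 14 RA (50%) and 21 of 26 butyrate (80.8%) Il17a or Il23r positive members, in 1 of 40 and 4 of 56 members in neither subset, and in no Cd8a positive member. Trgv6 was seen in 5 of 14 and 8 of 26 Il17a or Il23r positive members and in 0 of 40 and 1 of 56 of the rest. At least 1 of these 2 segments was present in 9 of 14 RA cells (64.3%, 35.1 to 87.2) and 22 of 26 butyrate cells (84.6%, 65.1 to 95.6) of this subset, and both in 3 and 7. No alpha beta T cell held both, and Trdv4 was seen in 0.862% and 0.544% of them. Segments of other gamma chains were seen in every subset. Trgv1, Trgv2 or Trgv7, the last of these the segment known from intestinal epithelium, was seen in 7 of 10 RA and 1 of 4 butyrate Cd8a positive members, in 12 of 40 (30%) and 17 of 56 (30.4%) members in neither subset, and in 2 of 14 (14.3%) and 5 of 26 (19.2%) Il17a or Il23r positive members, a difference that was not tested. Trgv7 itself was seen in 3 RA members, 2 of them Cd8a positive. The 3' chemistry reads few variable segments, so a segment not seen is no sign that the chain lacks it. Lymphoid barcodes without CD3 held Trdv4 in 12.3% and 17.5%.

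To ask how the subsets differ in other genes, UMIs were summed per mouse and population and tested with edgeR's quasi-likelihood method with the mouse as a term. The fit held 9 sums of at least 10 cells: the Il17a or Il23r positive members, the members in neither subset, and the Cd8a positive and Cd8a-negative alpha beta T cells of both mice, and the Cd8a positive members of the RA mouse alone, since the butyrate library had 4. Of 7369 genes tested, the 10 used by the gates are left out of every count below. The 2 mice, which also differ in diet, stand as the replicates of every population but the Cd8a positive members. These have 1 sum and no replicate, so in both comparisons with them the spread comes from the other populations and the lone sum is assumed to vary like those. The fit had 3 residual degrees of freedom, and each adjusted p below comes from it with Benjamini-Hochberg adjustment over all genes tested. A fold change is on the log2 scale with its standard error (SE), and CPM is a gene's share of the summed UMIs in counts per 1000000. On simulated counts, 8-fold changes were recovered in 98% of genes between the first 2 populations, in 100% between members in neither subset and Cd8a-negative alpha beta T cells, in 88.4% between Cd8a positive members and alpha beta T cells, and in 78% between Il17a or Il23r positive and Cd8a positive members. For 2-fold changes the shares were 3.19%, 6.91%, 0% and 0% in that order. The simulation gave all populations the same mean levels, raised genes only, and used a single spread larger than the common spread of the fit. Its shares therefore hold for that setting, and on the real counts some folds smaller than 2-fold did pass the test.

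The Il17a or Il23r positive members carried a broad interleukin 17 programme and lower levels of several chemokine and killer receptor genes than the other members. This comparison was added after the Cd8a positive cells of the butyrate library proved too few. It called 318 of 7359 genes higher (4.32%) and 308 lower (4.19%), and 624 of these 626 had the same direction in both mice. The same 2 mice chose these genes, so the shared direction is close to fixed by the calls and is no separate support. Each fold within a mouse had 0.5 UMI added to both sums. With each cell thinned to 1000 UMIs, 83 were higher and 153 lower. Of 25 tested genes of the interleukin 17 list, 19 were higher and 0 lower, with a median log2 fold of 4.38 (3.67 with genes at 0 on one side set at their bound) against -0.03 over all genes. Within the subset, the genes that chose it were seen as 71 Il17a UMIs in 8 RA cells and 130 in 15 butyrate cells, and as 123 Il23r UMIs in 13 RA cells and 132 in 25 butyrate cells.

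Cd163l1, which encodes the scavenger receptor SCART1 of interleukin 17-producing gamma delta cells, had the smallest adjusted p. It was present at 94 UMIs in 12 of 14 RA cells (940 CPM) and 204 UMIs in 23 of 26 butyrate cells (1213 CPM). In the members of neither subset it was at 0 in the RA mouse and at 1 UMI in the butyrate mouse (2.83 CPM). The ratio of summed levels was 669 (counting interval 119 to 26520). The fitted log2 fold was 9.18 (SE 0.45, edgeR adjusted p = 1.75e-07). Cd163l1 lies on chromosome 7 at 140218267 to 140231145, forward strand.

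Receptors for the cytokines that drive these cells were also higher. Il1r1, the interleukin 1 receptor, stood at 760 CPM in 12 RA cells and 589 CPM in 23 butyrate cells of the subset, against 16.1 and 17 CPM in the rest, a log2 fold of 5.19 (SE 0.47, edgeR adjusted p = 2.04e-05). Both mice thus had the receptor in nearly all cells of the subset and in 3 cells of the other members. Il7r, the interleukin 7 receptor, was at 900 and 969 CPM against 181 and 320 CPM, with a log2 fold of 1.80, and Il18r1 had one of 2.38. The costimulator Icos was at 800 and 1230 CPM against 124 and 170 CPM, a log2 fold of 2.67 (edgeR adjusted p = 1.11e-05). Cxcr6, a chemokine receptor of tissue-resident lymphocytes, was at 930 and 958 CPM against 12 and 85.0 CPM, a log2 fold of 4.01 (adjusted p = 1.38e-04).

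Among the transcription factors, Maf, which the interleukin 17 lineage of gamma delta cells requires, was at 106 UMIs in 10 RA cells and 97 UMIs in 22 butyrate cells, against 21 UMIs in 11 and 13 UMIs in 11 cells of the rest. Its log2 fold was 3.67 (SE 0.42, edgeR adjusted p = 1.04e-04). Zbtb16, which encodes the innate-like lineage factor PLZF, was higher by 1.67 (SE 0.44, adjusted p = 0.0301), although it was at 233 CPM in the RA and 82.1 CPM in the butyrate members of neither subset. The difference was 0.47 within the RA mouse and 2.80 within the butyrate mouse, and the adjusted p was above 0.05 in 4 of 10 alternatives (0.158 at the highest). Rora was higher by 1.88 (adjusted p = 6.64e-05).

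Effector and signalling genes of the same list were uneven between cells. Il17f was at 36 UMIs in 9 cells, 25 of them in 3 RA cells, against 0 in the rest, at least 26.9-fold higher against a floor of 3 UMIs over the group (edgeR adjusted p = 1.10e-04). Il22, an epithelial barrier cytokine, was at 20 UMIs in 7 cells against 2 UMIs, a log2 fold of 4.38 (adjusted p = 0.0147). The repair factor Areg was at 62 UMIs in 13 cells against 5 UMIs in 3 cells, 4.63 on the log2 scale (adjusted p = 6.63e-05). S100a4 was the most abundant, at 3981 CPM in the RA and 2474 CPM in the butyrate cells against 104 and 119 CPM (log2 fold 4.69, adjusted p = 1.25e-06). Blk, a Src-family kinase of B cells and of this gamma delta lineage, was at 450 and 297 CPM against 0 and 8.50 CPM (log2 fold 6.03, adjusted p = 1.40e-04). B cells hold Blk too, in 55.1% of barcodes. In this subset 3 and 4 of 11 B cell markers had a UMI, at 160 and 143 CPM in sum. Cd79a was at 0 by the gate, and Cd22 and Ms4a1 were among the others at 0.

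Of the 12 largest fitted folds, 11 belonged to genes seen in this subset and at 0 in the other members. They included Ltb4r1, the leukotriene B4 receptor, with 39 UMIs in 16 cells (at least 29.2-fold higher), Npnt with 52 in 19 cells (at least 38.9-fold), Cryba4 with 44 in 20 cells (at least 32.9-fold), and Trpm6 and Eps8 (each at least 21.7-fold). Slc15a3 was at least 17.2-fold and Ablim3 at least 16.5-fold higher. Palld came from 24 UMIs in 2 butyrate cells, Calca from 21 UMIs in 5 cells and Stmn2 from 16 UMIs in 6 cells. All 8 fibroblast markers were seen in the butyrate cells of the subset, at 1618 CPM in sum against 10 CPM in the RA cells, and their part in such genes was not tested.

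**Figure D2:**
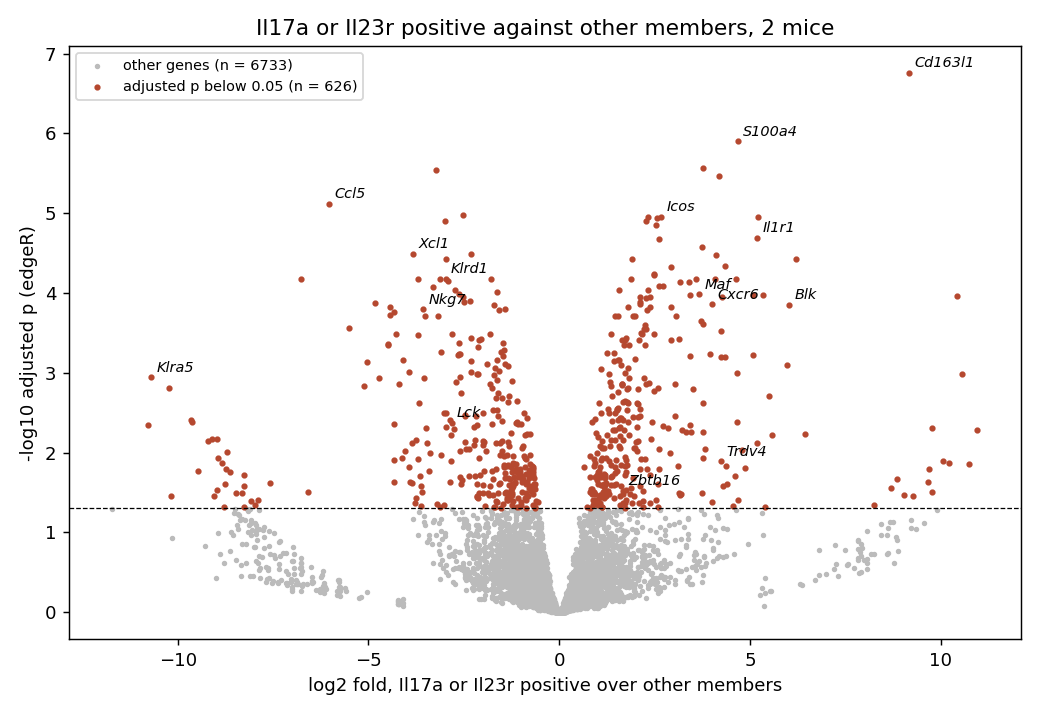
Each point is a gene, with the fitted log2 fold of Il17a or Il23r positive over other members on the x axis and the negative log10 of the edgeR adjusted p on the y axis. The 626 coloured genes lie above the dashed line at an adjusted p of 0.05, with Cd163l1 at the top right and Ccl5 and Klra5 at the left.

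Several chemokine and killer receptor genes were lower in the Il17a or Il23r positive members. The chemokine gene Ccl5 was at 7 UMIs in 2 RA cells (70.0 CPM) and 6 UMIs in 1 butyrate cell (35.7 CPM), against 927 UMIs in 32 RA cells (3723 CPM) and 892 in 33 butyrate cells (2526 CPM) of the rest. The log2 fold was -6.04 (SE 0.47, edgeR adjusted p = 7.61e-06), and the summed levels lay far apart in both mice. Xcl1, another chemokine gene, was at 30 and 95.2 CPM against 755 and 1051 CPM (log2 fold -3.82, adjusted p = 3.22e-05). Klra5 was at 0 in all 40 cells, against 49 UMIs in 12 RA cells and 46 UMIs in 9 butyrate cells, at least 14.1-fold lower (adjusted p = 1.14e-03). Of 8 killer lectin receptors tested 3 were lower, among them Klrd1 at -2.98 on the log2 scale, and of 13 cytotoxic genes Nkg7 (-3.57) and Ctsw (-2.32) were lower and the granule proteoglycan gene Srgn (0.86) higher. The median log2 fold was -0.52 over the cytotoxic list and -2.69 over the killer lectin list.

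The other genes with the lowest fitted folds were likewise at 0 in the subset. Ly6c2 was at least 13.1-fold lower, the peptidase gene Dpp4 at least 9.80-fold, Lrmda at least 9.35-fold, Ncf1, an oxidase subunit gene, at least 6.68-fold and the adhesion receptor gene Slamf6 at least 6.53-fold lower. H2bc4, Zdhhc14, Cd200r4, Cd200r1 and Nsg2 had bounds from 4.16-fold to 4.90-fold.

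The receptor signalling genes split. Of 11 tested, 3 were higher, Blk and the T cell receptor kinase and adaptor genes Zap70 (log2 fold 1.5) and Lat (1.11). Among the 5 lower were Lck (-2.82), the kinase that starts T cell receptor signalling, Cd2 (-5.04), Fcer1g (-4.73), an adaptor chain that can stand in for CD3 zeta, and Ptprc (-1.43), the phosphatase CD45. The costimulatory receptor gene Cd27, by which the gamma delta lineages are commonly told apart, was at 1 UMI in the 40 cells. In the 96 others it was at 96 UMIs (log2 fold -5.52, edgeR adjusted p = 2.76e-04). Cd28, another costimulatory receptor gene, was at 4 against 187 UMIs (log2 fold -4.43, edgeR adjusted p = 1.48e-04). Of 20 residence and traffic genes, 5 were higher, among them Cxcr6, Gpr183 (2.48) and Prdm1 (3.84), and 7 were lower. Among the lower ones were Ccr7 (-4.82), S1pr1 (-1.92), Klf2 (-1.53), Lef1 (-2.15), Tcf7 (-1.33) and Gpr18 (-1.73). All of these but Gpr18 are known from naive and recirculating T cells.

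Counts over the other lists differed. Of 9 tested group 3 innate lymphoid markers 7 were higher and 1 lower (median log2 fold 2.48), and of 5 tissue support and repair genes 2 were higher and 0 lower (3.81). Of 16 type 1 effector genes 2 were higher and 4 lower (-1.45), of 16 intraepithelial surface genes 3 and 4 (-1.12), of 17 checkpoint and costimulator genes 2 and 4 (-0.96), and of 5 alpha beta T cell genes 0 and 2 (-5.52). None of 17 cell cycle, 12 heat shock, 17 lipid and fuel or 10 butyrate receptor, transporter and histone deacetylase genes passed the test in this comparison. Of 22 immediate early genes 4 were lower, among them Fos (-1.75) and Junb (-0.94). Of 15 type I interferon genes 1 was lower, Ifi27l2a at -2.61. The group 3 innate lymphoid marker list, 7 of whose 12 genes are also in the interleukin 17 list, summed to 6562 and 5805 CPM in this subset, against 1634 and 1175 CPM in the members of neither subset. Its part in the result was not tested.

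**Figure D3:**
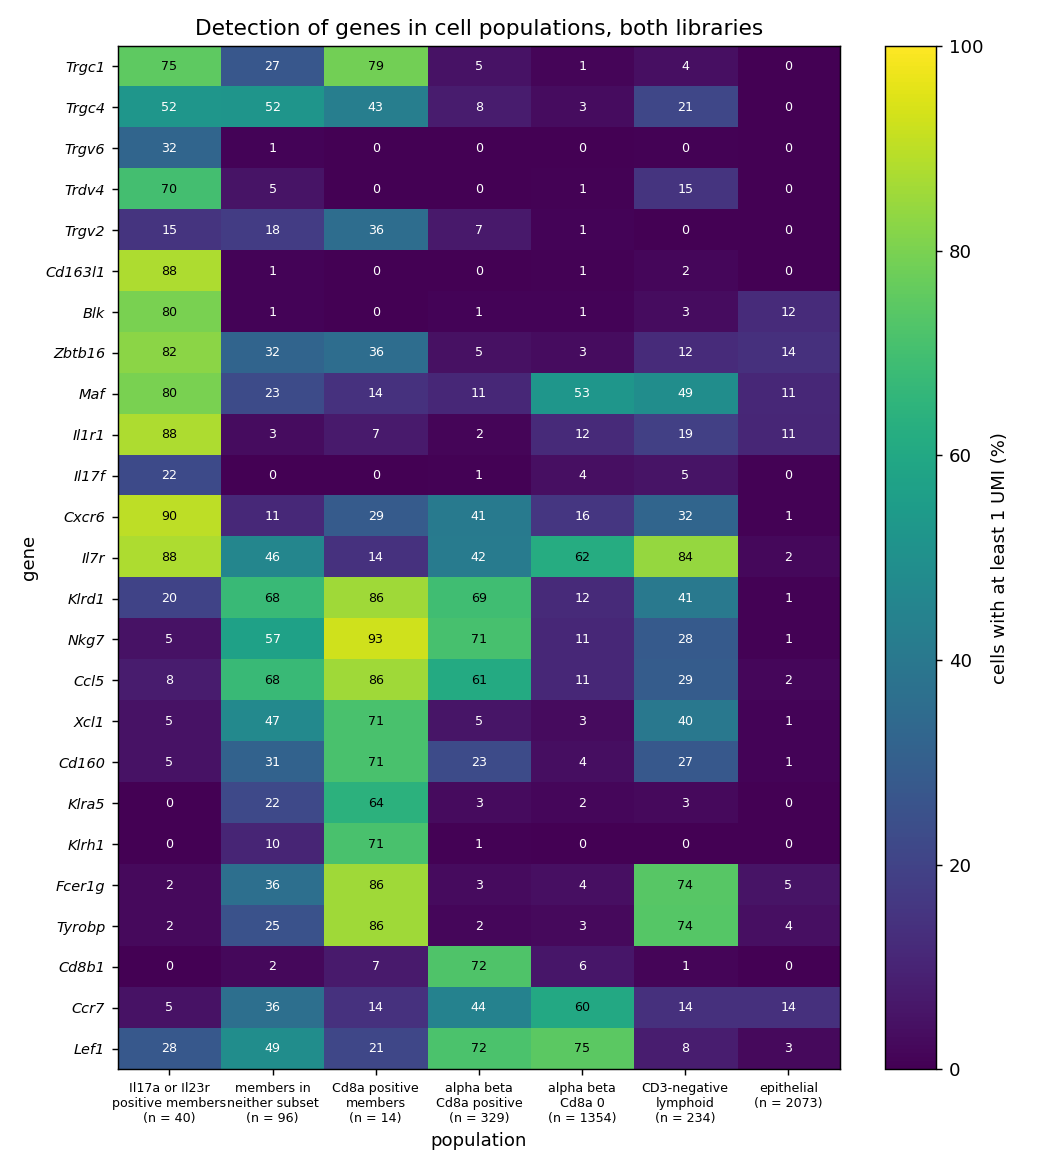
Rows are genes and columns are cell populations of both libraries together, and each cell of the grid gives the percentage of barcodes with at least 1 UMI, which is also its colour. Cd163l1 is seen in 87.5% of the 40 Il17a or Il23r positive members and in 1.04% of the 96 members in neither subset.

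Members in neither subset differed from Cd8a-negative alpha beta T cells by the gamma chain and by killer lectin receptor and intraepithelial surface genes. The edgeR fit called 162 of 7359 genes higher (2.20%) and 129 lower (1.75%), and 288 of these 291 had the same direction in both mice. Here too the same mice chose the genes, so the shared direction is no separate support. After thinning 65 were higher and 42 lower. Of 7 gamma delta receptor genes 4 were higher: Trgc1 by 4.96 on the log2 scale, Trgc4 by 4.26 (edgeR adjusted p = 1.42e-06), Trgv2 by 4.15 and Trgc2 by 3.15. Trgc4 was at 181 and 195 CPM in these members against 12.1 and 7.84 CPM. Of 8 killer lectin receptors 6 were higher and 0 lower (median 2.65), of 16 intraepithelial surface genes 8 and 0 (median 1.63), of 16 type 1 effector genes 7 and 0 (1.30), and of 13 cytotoxic genes 3 and 0 (0.11), beside a median over all genes of -0.02. Of 3 tested natural killer cell markers 0 were higher and 0 lower (median 0.03).

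The leading genes were surface and signalling molecules. Cd7, an early T and natural killer cell glycoprotein, was at 96 UMIs in 30 of 40 RA cells (386 CPM) and 175 UMIs in 33 of 56 butyrate cells (496 CPM), against 37.9 and 25.9 CPM in the alpha beta T cells (log2 fold 3.79, SE 0.23, edgeR adjusted p = 7.73e-07). Kit, the stem cell factor receptor, was at 534 and 385 CPM against 54.0 and 22.8 CPM (3.65, SE 0.21, same adjusted p). Peli2, a ubiquitin ligase of innate receptor signalling, was at 257 and 102 CPM against 9.06 and 4.19 CPM (4.67, SE 0.34, adjusted p = 3.85e-06). These 3 genes were also frequent in lymphoid barcodes without CD3, where a UMI of Kit was seen in 48.3%, of Cd7 in 30.8% and of Peli2 in 16.7%.

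Killer genes were higher too. Xcl1 was higher by 3.34 and Klrd1 by 2.60 (both edgeR adjusted p = 3.85e-06), Ccl5 by 2.02 (adjusted p = 1.32e-03), and the inhibitory receptor gene Cd160 by 3.39 (adjusted p = 2.19e-05). Klra5 was higher by 3.1, Klri1 by 3.53, Klrh1 by 3.84 and the activating receptor gene Klrk1 by 2.70. The adaptor genes of activating receptors, Fcer1g at 3.04 and Tyrobp at 3.40, were also higher, at 149 and 218 CPM and at 185 and 184 CPM, against 15.0 to 26.8 CPM in the alpha beta T cells. Fcer1g and Tyrobp were seen in 73.9% and 73.5% of lymphoid barcodes without CD3. Granzyme genes did not pass the test, as the log2 fold of Gzma was -0.72 (adjusted p = 0.730) and that of Gzmb -1.26 (adjusted p = 0.236).

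Some factors of innate-like lymphocytes were higher as well. Zbtb16 was higher by 2.96 (edgeR adjusted p = 1.48e-03), at 233 and 82.1 CPM against 29.9 and 10.4 CPM. Sox5 was higher by 3.65 (adjusted p = 0.0288), but 47 of its 56 UMIs came from 8 butyrate cells and its adjusted p reached 0.234 among the alternatives. Tbx21, the type 1 factor T-bet, was higher by 2.28 but passed in 3 of 9 alternatives only. Also higher were Runx3 (1.11) and the interleukin 12 receptor gene Il12rb2 (1.93). The signalling genes Clnk (4.23) and Lat2 (3.69), the unconventional myosin gene Myo16 (4.25) and the inhibitory receptor family member Cd200r4 (3.52) completed the highest folds.

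Among the genes lower in these members was Cd4. It was at 8 UMIs in 96 cells against 1444 UMIs in 1354 alpha beta T cells (log2 fold -3.73, edgeR adjusted p = 1.99e-04). The costimulatory genes Icos (-2.46), Cd40lg (-5.01), Ctla4 (-2.24), Tnfrsf4 (-2.92), Tnfsf8 (-3.38) and Btla (-2.87) were lower, as were the adaptor gene Sh2d1a (-3.33), the folate receptor family gene Izumo1r (-3.16) and Maf (-3.1). Il17f, at 0 against 477 UMIs, was at least 11.3-fold lower, Ntrk3, at 0 against 569 UMIs, at least 13.5-fold lower, and Il22 lower by 3.64 on the log2 scale. Neb, Pgap1, Olfr60 and Khdrbs3 were the others among the lowest 12. Over the whole lists, 3 checkpoint and costimulator genes were higher and 5 lower of 17 tested, and 1 residence and traffic gene was higher and 4 lower of 20. Of the traffic genes Ccr7 (-1.23), S1pr1 (-1.33), Lef1 (-0.95) and Gpr183 (-1.53) were lower. A gate on Cd8a, Il17a and Il23r removed interleukin 17-making members but not such alpha beta T cells. This touches the values of Il17f, Il22 and Maf and of other genes high in the removed members, such as Icos, Gpr183 and Olfr60.

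The Cd8a positive members of the RA library, 10 cells of 1 mouse, were set against the Cd8a positive alpha beta T cells of both mice. This single sum has no replicate of its own, and each adjusted p here assumes that it varies like the replicated populations. The fit called 96 of 7359 genes higher (1.30%) and 45 lower (0.611%). Cd8b1, which encodes the CD8 beta chain of conventional cytotoxic T cells, was at 0 in all 10 cells against 571 UMIs in 238 of 329 alpha beta T cells, at least 7.31-fold lower (edgeR adjusted p = 0.0148, and 0.424 at the highest among the alternatives). Among the 4 butyrate cells, outside the fit, 1 had 2 Cd8b1 UMIs. Xcl1 was at 227 UMIs in 7 of 10 cells (1962 CPM) against 39.5 CPM in the RA and 23.2 CPM in the butyrate alpha beta T cells (log2 fold 6.19, SE 0.34, adjusted p = 4.24e-07).

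The killer receptor genes divided by family. Klra5 was at 55 UMIs in 7 of the 10 cells (475 CPM) against 15.1 and 13.5 CPM, a log2 fold of 4.49 (edgeR adjusted p = 2.53e-04), and Klrh1 at 59 UMIs in 7 cells, a log2 fold of 6.48 (adjusted p = 3.88e-04). Klri1 was higher by 4.78. In contrast Klrc1 and Klrc2, which encode the NKG2A and NKG2C partners of CD94, were at 0 and at least 6.93-fold and 4.98-fold lower. Fcer1g was at 65 UMIs in 9 cells (562 CPM) against 24.4 and 12.6 CPM (log2 fold 4.97, adjusted p = 7.31e-05), and Tyrobp was higher by 4.57. Also higher were Cd7 (3.1), Kit (4.05), Cd160 (2.38), Cd96 (1.63), the interleukin 2 and 15 receptor beta gene Il2rb (1.76) and Tox (2.29). In the 4 butyrate cells Fcer1g was at 710 CPM, Tyrobp at 803 CPM, Klra5 at 834 CPM and Cd7 at 1200 CPM, which are values outside the fit.

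None of 13 cytotoxic genes passed the test in this comparison (median log2 fold 0.02 against -0.15 over all genes), where no simulated 2-fold change was recovered. Gzmb was at 144 UMIs in 6 of 10 RA cells and 42 UMIs in 1 of 4 butyrate cells, and Gzma at 111 UMIs in 4 RA cells and 0 in the butyrate cells. Their folds against the alpha beta cells were -0.66 (adjusted p = 0.634, edgeR) and -0.91 (adjusted p = 0.508). Prf1, the perforin gene, was at 0 in all 14. Lower in the Cd8a positive members were Cd28 (-4.60), Icos (-3.55), Ctla4 (-2.53), the signalling adaptor gene Lat (-3.61), Ccr7 (-3.41), Klf2 (-2.12), Lgals1 (-4.85) and S100a4, which was at 0 and at least 19.0-fold lower. Ly6c2 (at least 16.9-fold, past the threshold in 2 of 8 alternatives), Dusp2 (at least 7.45-fold) and Sh2d1a (at least 5.27-fold) were also at 0.

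Several of the largest folds in that comparison came from very few cells. Flt1, an endothelial gene, came from 2 of the 10 cells, and Rgs5, Tm4sf1 and Adamts9 from 1 cell each. In these 10 cells 7 of 8 endothelial markers had a UMI, at 449 CPM in sum, with Prox1 at 0, and their part was not tested. On the lower side, 1813 Cfd UMIs came from 5 alpha beta T cells, Car3 from 1 cell and Lpl from 5 cells. The remaining high folds were those of Capn3 (7.80), Ahrr (6.87), a repressor of the aryl hydrocarbon receptor, Serpina3g (6.40), Clnk (6.20) and Slfn5 (5.82).

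The Il17a or Il23r positive and the Cd8a positive members were also set against each other. The comparison of Il17a or Il23r positive with RA Cd8a positive members called 147 genes higher (2%) and 125 lower (1.70%), it shares its sums with the comparisons above, and it again rests on the single Cd8a positive sum. Of 25 interleukin 17 genes 13 were higher and 0 lower (median 6.18, or 3 with genes at 0 set at their bound, against 0.05 over all genes), and of 13 cytotoxic genes 5 were lower and 0 higher (median -2.01). Gzma was at 0 and at least 85.7-fold lower, Gzmb lower by 3.46 on the log2 scale at 36 against 144 UMIs, and Nkg7 lower by 4.62. S100a4 was at least 117-fold and Cd163l1 at least 42.9-fold higher, since both were at 0 in the 10 Cd8a positive cells. Serpinb1a (at least 15.5-fold), Ramp1, a subunit of the receptor for the neuropeptide CGRP, and Plcb4 (each at least 14.8-fold), Blk (at least 13.7-fold) and Adam12 (at least 11.5-fold) followed. At 0 in the Il17a or Il23r positive members were Klrh1 (at least 45.6-fold lower), Klra5 (at least 42.5-fold), Cd200r4 (at least 20.9-fold), the interferon-induced GTPase gene Iigp1 (at least 16.2-fold), Tnfsf10 and Cd244a (each at least 11.6-fold).

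Per cell, the summed interleukin 17 list without Il17a and Il23r ran from 7.12 through a median of 134 to 224 UMIs per 10000 in the RA cells of the subset, and from 0 through 132 to 183 in the butyrate cells. In the Cd8a positive cells it ran from 0 through 3.61 to 18.3 (RA) and from 5.28 through 13.4 to 17.9 (butyrate). Members of neither subset had medians of 12 and 9.48, with highest values of 58.2 and 141, so the ranges overlapped. The cytotoxic list overlapped more: its median was 58.1 and 36.7 in Cd8a positive, 26.5 and 29.7 in Il17a or Il23r positive and 23 and 21.1 in the remaining members.

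Between the 2 libraries, UMIs of all members were summed, 464686 for RA and 553587 for butyrate, and each gene's CPM was compared as a butyrate to RA ratio with an exact 95% counting interval. Of 6103 genes with at least 20 UMIs, 204 (3.34%) had a ratio of at least 2 and 278 (4.56%) one of at most 0.5. Among 11786 genes of alpha beta T cells these shares were 1.51% and 6.32%. Ratios above 1 were held by 52.5% of genes in the members and 39.3% in alpha beta T cells. Within the members the share was 49.6% in those of neither subset and 51.6% in the Il17a or Il23r positive ones. Trdc itself had a ratio of 1.02 (0.900 to 1.16), Trgc1 of 1.07 and Trgc4 of 1.02.

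Since 10 RA and 4 butyrate members were Cd8a positive, the makeup of the members enters every ratio of their genes, and fewer cells of a subset and less RNA per cell cannot be told apart in it. Of the killer lectin list 2 genes had ratios above 1 and 7 below, 1 of these at most 0.5 (median log2 ratio -0.25). Klra5 had a ratio of 0.589 (0.431 to 0.802), Klrh1 of 0.321 (0.196 to 0.511) and Klrd1 of 0.624 (0.490 to 0.794). Gzma was at 127 UMIs in 7 RA cells, 48 of them in 1 cell, and at 5 UMIs in 4 butyrate cells, a ratio of 0.033 (0.011 to 0.079). In alpha beta T cells the ratio of Gzma was 0.131. Gzmb had a ratio of 0.556 (0.430 to 0.717) and Ccl5 of 0.583 (0.537 to 0.632). Of the cytotoxic list 2 genes had ratios above 1 and 8 below (median log2 ratio -0.65, against 0.02 over all genes). The members of neither subset hold no cell with a Cd8a UMI, but cells with undetected Cd8a RNA can be among them. Within these members alone, 4.62% of 4458 genes had a ratio of at least 2 and 5.85% one of at most 0.5. There the killer lectin list had 0 above and 6 below (median -0.60) and the cytotoxic list 3 above and 6 below (-0.16).

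Genes of the interleukin 17 programme did not share a direction. Cd163l1 had a ratio of 1.83 (1.43 to 2.36), Trdv4 of 2.63 (1.45 to 5.06), Icos of 1.97 (1.58 to 2.48) and Il7r of 1.70 (1.38 to 2.10). Il17f, at 25 RA and 11 butyrate UMIs, had a ratio of 0.369 (0.164 to 0.778) and Il22 one of 0.315 (0.101 to 0.847). Over the list 13 genes lay above and 10 below 1 (median 0.14), whereas in alpha beta T cells 2 lay above and 24 below (median -0.73). Over all genes 39.3% lay above 1 in alpha beta T cells, with a median of -0.08. In the members of neither subset 3 genes of the list lay above and 7 below, 5 of them at most 0.5 (median -0.81). Within the Il17a or Il23r positive members, where 8.12% of 2512 genes had a ratio of at least 2 and 3.38% one of at most 0.5, 12 lay above and 10 below (median 0.07).

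Several further genes had ratios above 1 and were singled out after their values were seen. Cd28 was at 45 UMIs in 20 RA cells and 149 UMIs in 36 butyrate cells, a ratio of 2.78 (1.98 to 3.97), while its ratio in alpha beta T cells was 1.13. The quiescence factor genes Klf3 and Klf2 had ratios of 2.94 (1.91 to 4.65) and 1.70 (1.44 to 2.02), and Lef1, a factor of naive T cells, one of 1.94 (1.54 to 2.46). Gpr183, an oxysterol receptor that guides lymphocytes in the gut, had a ratio of 2.14 (1.54 to 3.02). Of the alpha beta T cell genes, 5 of 7 lay above 1 in all members, and 5 of 6 within the members of neither subset, 2 of them at 2 or more. Of the residence and traffic list, 14 genes lay above and 6 below 1 (median 0.38, against -0.13 in alpha beta T cells), and within the members of neither subset 13 and 3 (0.59). On the other side of this list the integrin genes Itgae and Itga1, which hold T cells in epithelium, had ratios of 0.488 and 0.280.

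**Figure D4:**
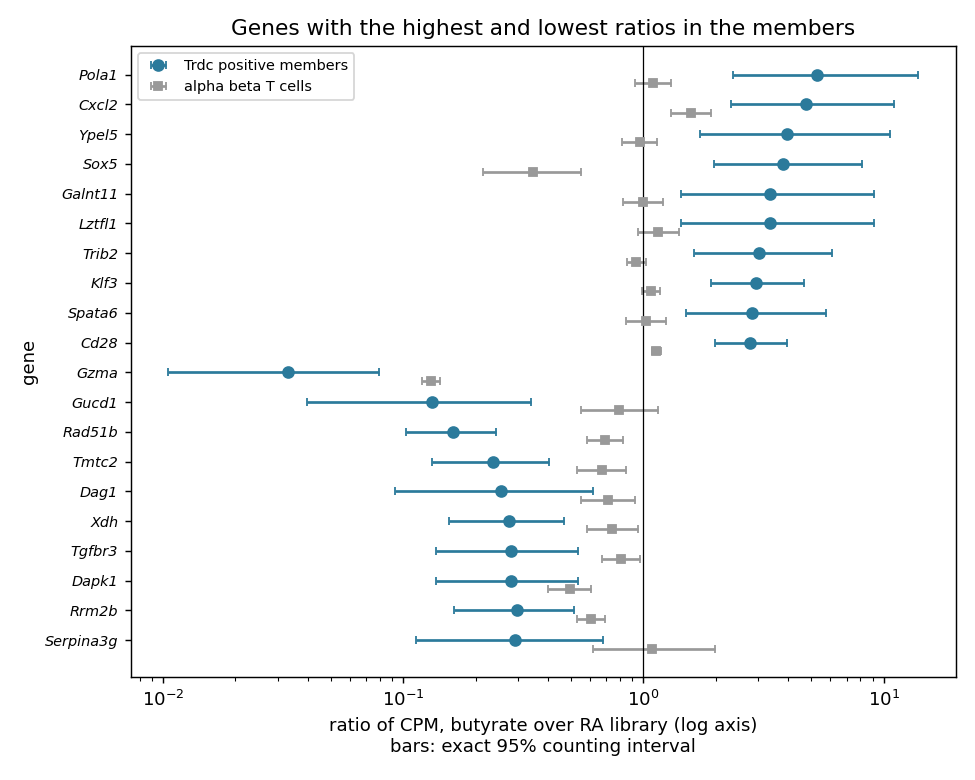
Circles give the butyrate to RA ratio of CPM in the members and squares the same in alpha beta T cells, on a log axis, with exact 95% counting intervals as bars, for the genes with the highest and lowest ratios in the members. Gzma lies lowest, at 0.033, and Pola1 highest, at 5.28.

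The highest ratios were those of Pola1, a DNA polymerase subunit gene, at 7 UMIs in 6 RA cells and 44 UMIs in 19 butyrate cells (5.28, 2.36 to 13.9; alpha beta 1.09), Cxcl2 (4.76, with 40 of 51 butyrate UMIs in 1 cell) and Ypel5 at 7 UMIs in 7 and 33 UMIs in 29 cells (3.96, 1.72 to 10.6; alpha beta 0.963). Sox5 (3.82), Galnt11 (3.36), Lztfl1 (3.36), Trib2 (3.03) and Spata6 (2.84) came after them. Pola1 and Ypel5 were thus spread over many cells and lay near 1 in alpha beta T cells. Of the lowest ratios, several rested largely on 1 RA cell per gene. The top RA cell held 23 of 32 Gucd1 UMIs, 83 of 141 Rad51b UMIs and 52 of 64 Tmtc2 UMIs. For Tgfbr3 the top cell held 25 of 39 UMIs and for Dapk1 22 of 39. The top cell was taken for each gene separately, and whether the genes share it was not examined. Rrm2b, a nucleotide reductase subunit gene, had a ratio of 0.296 (0.163 to 0.516) over 32 RA and 17 butyrate cells, and Dag1 one of 0.255 over 16 and 6 cells. Xdh (0.275) and Serpina3g (0.292) were the others.

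Type I interferon genes lay lower in the butyrate members and higher in the butyrate alpha beta T cells. In the members 2 lay above and 7 below 1 (median log2 ratio -0.57), among them Isg15 at 0.466 (0.274 to 0.777) and the nucleic acid sensor gene Zbp1 at 0.420. In alpha beta T cells 19 lay above and 1 below (median 0.33), and the difference was not tested. Within the members of neither subset 4 lay above and 3 below (0.06). Immediate early genes had 5 above and 15 below (-0.19), with Egr1 at 0.247 (0.177 to 0.338) and Jun at 0.433. All 8 cell cycle genes with enough UMIs lay above 1 (median 0.66), 1 of them at 2 or more, against 14 above and 4 below in alpha beta T cells (0.28). In the Il17a or Il23r positive members 1 lay above and 1 below, and in the members of neither subset 5 and 0. Over all genes 52.5% lay above 1 in the members and 39.3% in alpha beta T cells. Of the genes through which butyrate is sensed or acts, 3 lay above and 4 below (-0.07), among them the transporter gene Slc16a1, at 14 UMIs in 9 RA cells and 33 UMIs in 25 butyrate cells, with a ratio of 1.98 (1.03 to 4). MHC class I genes (7 above, 8 below, -0.02) and heat shock genes (7 above, 5 below, 0.04) lay about 1.

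Markers of other cell types were seen in the members as a whole, and those of fibroblasts, myeloid and epithelial cells summed higher than in alpha beta T cells. Of 11 B cell markers 6 and 7 had a UMI in the RA and butyrate members (148 and 143 CPM in sum). Cd79a was at 0 by the gate, and Cd22 was among the others at 0. Of 14 epithelial markers 11 and 13 had a UMI (303 and 201 CPM, Epcam at 0 by the gate). Of 11 myeloid markers 8 and 7 did (247 and 202 CPM, S100a8 and S100a9 at 0), and of 8 endothelial markers 7 and 2 (192 and 108 CPM). Of 12 natural killer markers 7 and 10 had a UMI (338 and 99.4 CPM, Klra8 and Klra4 at 0), a list that includes Gzma. All 8 fibroblast markers were present, at 652 and 491 CPM, which came from the RA members of neither subset (1165 CPM) and the butyrate Il17a or Il23r positive members (1618 CPM). In RA and butyrate alpha beta T cells the sums were 108 and 154 CPM for B cell, 242 and 182 for epithelial and 81.5 and 101 for myeloid markers. They were 200 and 174 CPM for endothelial, 679 and 128 for natural killer and 358 and 61.4 for fibroblast markers. Group 3 innate lymphoid markers summed to 2488 and 2587 CPM in the members, against 1172 and 843 CPM in alpha beta T cells. The part of these RNAs in the ratios was not tested.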

How the data were processed

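The authors deposited raw UMI counts per gene and barcode, with no normalization. The count headers name Cell Ranger 7.1.0, per the file headers, whereas the submitters' processing notes list Cell Ranger 6.0.1, Seurat 4.0.3 and 4.0.4 and the genome mm10. Whether intronic reads were counted is not given in the sources used here. Library totals were 61912439 (RA) and 67894477 (butyrate) UMIs over 10140 and 9959 barcodes. Of 31253 gene identifiers, 31107 were found in GENCODE M21 (GRCm38).

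Members and 28 gene lists (396 of 413 genes in the files) were chosen with earlier results of these data known. Each mouse is 1 sample. Counts were summed per mouse and population and tested with edgeR 4.0.16 in R 4.3.3 (filterByExpr, TMM, mouse as a term), with DESeq2 1.42.0 as an alternative. The text names the 12 highest and 12 lowest folds of each comparison, without receptor segments, ribosomal, mitochondrial and unnamed genes and genes far below their level in other cell types, plus list genes. Intervals are exact (scipy 1.17.1). Doublet scores came from Scrublet in scanpy 1.11.5. The fit was tested on simulated counts. Alternatives were another gate, mitochondrial limit, normalization, filter, thinning, tool and each mouse left out. A few genes are not reported here by name, although they stay in the counts and list medians.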

Additional observations from a re-analysis of the deposited data

Results flagged for a closer look

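For 2 genes named here the butyrate to RA ratio lay above 1 in the Trdc positive cells and below 1 in the alpha beta T cells, with both counting intervals clear of 1. The difference between the populations was not tested. Sox5, a factor of innate-like T cells, had a ratio of 3.82 (1.96 to 8.13) against 0.346 (0.215 to 0.550), on 11 UMIs in 7 RA and 50 UMIs in 9 butyrate members. Ccl3, a chemokine gene, had one of 3.36 (1.22 to 11.4) against 0.241 (0.167 to 0.345), on 5 UMIs in 2 and 20 UMIs in 3 members.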

How the results depend on the processing

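With 1 mouse per diet and 10 RA cells behind the Cd8a positive comparisons, no value generalises beyond these mice. Between the diets, no paired analysis was possible because each diet has 1 mouse. The populations were paired by mouse through the mouse term, and leaving out a mouse leaves values with no test. Members with no Trac, Trbc1 or Trbc2 UMI were 1 and 3 cells, with a butyrate to RA ratio of 2.51 of kept and 1.64 of CD3 positive barcodes, and no fit was run on them. Thinned to 1000 UMIs, the ratio of Cd8a positive shares was 0, and ratios of at least 2 and at most 0.5 numbered 29 and 29. With no UMI minimum they numbered 2455 and 3298. For the Cd8a positive members against alpha beta T cells, higher calls went from 96 to 160 with no filter and 9 with thinning, and lower calls from 45 to 149 with no filter and 24 with DESeq2. For Il17a or Il23r positive against Cd8a positive members, higher calls went from 147 to 253 with no filter, 246 with populations from 4 cells and 13 with thinning, and lower calls from 125 to 203 with no filter and 11 with thinning. For members in neither subset against alpha beta T cells, higher calls went from 162 to 101 with no mouse term and 65 with thinning, and lower calls from 129 to 311 with no filter, 81 with DESeq2, 64 with no mouse term and 42 with thinning. For Il17a or Il23r positive against those members, higher calls went from 318 to 83 with thinning, and lower calls from 308 to 153 with thinning and 204 without members holding Trac. Thinning leaves fewer UMIs and cells to test. Library ratios crossed 1 for Cxcr6 (0.976), Jund (0.780) and Hspa1b (3.25) with thinning, for Fyn (1.02) and Xcl1 (1.84) without Trac-positive members, for Xcl1 (1.01, from 0.872) without its top cell and for Stmn1 (0.872) as a mean over cells. In the Cd8a positive comparisons, thinning turned Trgc4 to -3.73 (edgeR adjusted p = 0.865) and Junb to -0.012 and 0.0081. The cause of these changes was not tested.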
